A study of Mus musculus with 23 samples.

Results

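The 9 genes described here, Marco, Krt79, Chil3, Pparg, Fabp1, Mrc1, Itgax, Cd68 and Atp6v0d2, are transcribed in alveolar macrophages, and were followed in whole lung of mice of 2 strains with and without cystic fibrosis. They were chosen by name with earlier results of these data known, so counts among them do not describe an unselected set. A gene was counted through the probe sets of the array (groups of short probes against one transcript) that are annotated with its symbol alone, and all 9 of the 18193 genes measured in this way were found, on 12 probe sets. Marco, Fabp1 and Atp6v0d2 have 2 probe sets each, and for these the brighter one is given unless the other is named.

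RNA was taken from right lungs, used whole, of C57BL/6 mice (labelled B6) and BALB/c mice (labelled BALB), either CF-/- (labelled CF) or CF+/+ (labelled Control), and of both sexes. Each combination of strain, sex and genotype had 3 arrays, except the B6 CF males with 2, which makes 23 arrays. The labels give neither the mutant allele nor ages nor treatments, and nothing in them ties the arrays of a group to different mice, so each p-value reflects only how far these samples spread, and part of that spread may be technical. The brighter of the Cftr probe sets differed by -1.67 in BALB CF minus BALB control lungs (SE 0.13, limma adjusted p = 6.44e-07, n = 6 and 6). It ran from 5.40 to 5.85 in BALB controls, above every B6 array, and from 3.49 to 4.42 in BALB CF arrays. In B6 lungs the same probe set ran from 4.04 to 4.58 in controls and from 3.86 to 4.31 in CF arrays, a difference that did not pass the test (adjusted p = 0.430), so it is a check of the genotype labels in BALB lungs alone. All values are log2 signals as deposited, array medians lay between 4.56 and 4.64, and no detection calls accompany them, so for a dim gene the distance to background is unknown.

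Alveolar macrophages live on the airspace surface, clear surfactant, particles and bacteria, and depend on the cytokine GM-CSF, which acts through the nuclear receptor PPAR-gamma. They are told apart from other lung macrophages by high CD11c, the integrin encoded by Itgax, and Siglec-F, and by secretion of the chitinase-like protein Ym1 from Chil3. In bulk lung RNA, fewer cells of a type and less RNA per cell cannot be told apart, and this holds for every value below. Whether BALB/c transcripts differ in sequence under the probes was not tested. Krt79 and Chil3 rest on 1 probe set each that carries their symbol alone.

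The 3 genes that differed most between the strains lie on different chromosomes of the mouse genome (RefSeq annotation, build GRCm38.p6): Marco at chr1:120474538-120505024, Krt79 at chr15:101929332-101940324 and Chil3 at chr3:106147554-106167564, all on the minus strand. Chil4, which encodes the closely related protein Ym2, is the next annotated gene to Chil3, 33927 bp away with 0 genes between. The 250 bases upstream of each start site are shown because these genes carry the strain difference, and Chil4 because it lies next to Chil3 and shares a probe set with it. They are RefSeq sequences of the reference assembly, which is of the C57BL/6J strain, on the minus strand and written 5′ to 3′; no BALB/c sequence was used here. Capitals mark matches, on either strand, to 4 motifs searched: GAGGAA (the core bound by PU.1), TTGCGCAA (C/EBP), 2 copies of AGGTCA with 1 base between them (PPAR with its partner RXR) and TTCNNNGAA (STAT5).
Marco chr1:120505025-120505274: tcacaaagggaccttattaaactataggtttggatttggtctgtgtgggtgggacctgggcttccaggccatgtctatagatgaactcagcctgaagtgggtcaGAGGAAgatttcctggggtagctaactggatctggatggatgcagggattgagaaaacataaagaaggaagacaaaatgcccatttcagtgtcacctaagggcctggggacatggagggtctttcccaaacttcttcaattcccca
Krt79 chr15:101940325-101940574: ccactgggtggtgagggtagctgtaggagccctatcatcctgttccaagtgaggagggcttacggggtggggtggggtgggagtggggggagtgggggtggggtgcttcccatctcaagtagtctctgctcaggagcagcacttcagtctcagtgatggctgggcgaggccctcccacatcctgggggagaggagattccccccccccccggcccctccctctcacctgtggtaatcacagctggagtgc
Chil3 chr3:106167565-106167814: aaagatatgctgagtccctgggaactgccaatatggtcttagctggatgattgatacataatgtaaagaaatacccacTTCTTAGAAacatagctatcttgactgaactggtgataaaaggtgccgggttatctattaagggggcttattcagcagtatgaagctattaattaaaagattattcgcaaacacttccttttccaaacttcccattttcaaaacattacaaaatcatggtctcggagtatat
Chil4 chr3:106219480-106219729: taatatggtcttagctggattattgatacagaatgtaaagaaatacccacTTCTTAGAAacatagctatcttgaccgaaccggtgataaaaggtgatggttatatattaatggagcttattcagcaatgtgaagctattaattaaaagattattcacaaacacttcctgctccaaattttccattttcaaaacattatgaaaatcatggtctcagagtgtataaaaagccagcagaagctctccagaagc

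The Marco window held 1 GAGGAA, 146 bases upstream of the start, a motif present in 23.3% of 32851 mouse promoter windows of the same length. Chil3 and Chil4 held the same TTCTTAGAA, a match to TTCNNNGAA, 172 and 200 bases upstream respectively, and 7.02% of windows hold such a match. The Krt79 window held none of the 4. Over the 271 aligned bases of their promoter windows, which here run 50 bases past the start, Chil3 and Chil4 were 92.62% identical. The matches are descriptions of letters and not of binding.

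In control lungs all 9 genes had lower mean signals in BALB than in B6 mice, while 55.6% of all genes were higher in BALB. Of the 9, 5 passed the test across all probe sets (limma, Benjamini-Hochberg adjusted p up to 0.05): Chil3, Krt79, Marco, Itgax and Pparg. Of all 18193 genes, 18.2% passed in either direction and 9.58% were lower in BALB. The median difference of the 9 was -0.38, beside 0.02 for all genes. Chil3, Krt79 and Marco were each lower by at least 1.5 on the log2 scale, a size that 48 genes, or 0.264% of those tested, reached in that direction.

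**Figure D1:**
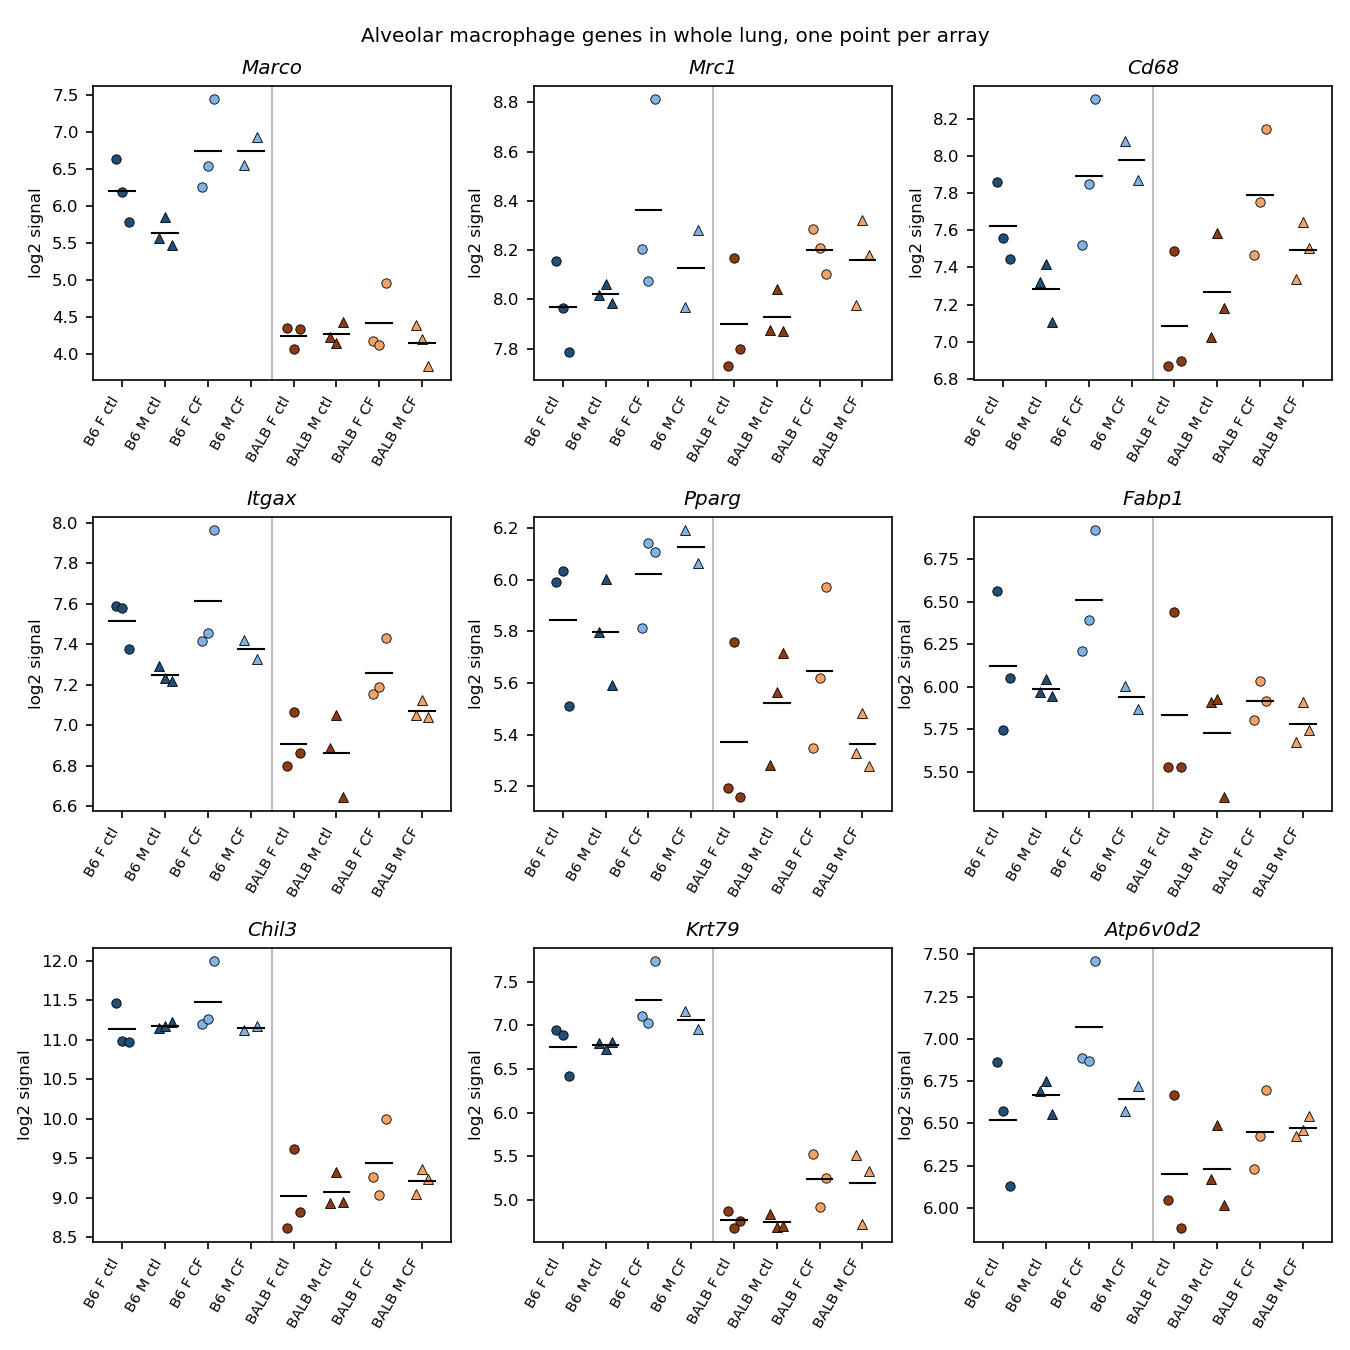
Log2 signal (vertical axis) of each gene in each of the 23 arrays, by strain, sex (circles female, F; triangles male, M) and genotype (ctl, Control; dark, Control; light, CF). Horizontal lines are group means, panels have their own scales, and the B6 and BALB points of Marco, Chil3 and Krt79 do not overlap.

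Chil3 encodes Ym1, a secreted lectin that alveolar macrophages make in bulk and that crystallises in inflamed airspaces. Its signal in B6 controls ran from 10.97 to 11.46 with a median of 11.16, and in BALB controls from 8.61 to 9.62 with a median of 8.94. The highest BALB control thus lay below the lowest B6 control. The difference was -2.12 (SE 0.17, 95% interval -2.48 to -1.76, adjusted p = 6.55e-09, n = 6 and 6), a 4.35-fold lower signal.

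Krt79 encodes a type II keratin known from the hair follicle and sebaceous gland, and its transcript is also a marker of alveolar macrophages. B6 controls ran from 6.42 to 6.95 with a median of 6.80, and BALB controls from 4.68 to 4.87 with a median of 4.73. The BALB control values spanned a narrow band just above the array medians, far from every B6 value. The difference was -2.01 (SE 0.14, 95% interval -2.29 to -1.73, adjusted p = 3.14e-10), a 4.03-fold lower signal.

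Marco is a scavenger receptor that binds bacteria and inhaled particles. B6 controls ran from 5.48 to 6.64 with a median of 5.82, and BALB controls from 4.07 to 4.43 with a median of 4.29, below the median of every array. The difference was -1.66 (SE 0.18, 95% interval -2.03 to -1.28, adjusted p = 5.80e-07), 3.15-fold. The second Marco probe set gave -1.07 (adjusted p = 8.32e-05), with BALB controls between 3.65 and 3.74. Both probe sets separated the strains without overlap.

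Itgax (chr7:128129526-128150657) encodes CD11c, which dendritic cells carry as well. Its B6 controls ran from 7.22 to 7.59 (median 7.34) and its BALB controls from 6.64 to 7.06 (median 6.87), again without overlap, and the difference was -0.50 (SE 0.09, adjusted p = 0.000310). Of all genes, 5.16% separated the control groups without overlap in this direction, and 4 of the 9 genes did: Chil3, Krt79, Marco and Itgax. Pparg (chr6:115360879-115490404), the gene of PPAR-gamma itself, ran from 5.51 to 6.03 (median 5.90) in B6 and from 5.16 to 5.76 (median 5.42) in BALB controls. These groups overlapped, and the Pparg difference was -0.38 (SE 0.12, limma adjusted p = 0.0431). The call was lost when any of 8 single control arrays, or 1 BALB CF male array, was left out, with adjusted p up to 0.119. It was also lost when the arrays were quantile normalized (0.0558), each array's median was subtracted (0.0578) or control arrays alone were fitted (0.0684).

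The other 4 genes did not pass. Atp6v0d2 (chr4:19876838-19922566) encodes an isoform of the d subunit of the V-ATPase, the proton pump that acidifies lysosomes, and differed by -0.38 (95% interval -0.67 to -0.09, adjusted p = 0.0706), with -0.33 (adjusted p = 0.219) at its second probe set. It passed with array weights (-0.34, adjusted p = 0.0497) and without B6 control female 3 (-0.48, 0.0208), BALB control male 2 (-0.45, 0.0438) or BALB control female 2 (-0.50, 0.00952). Cd68 (chr11:69664213-69666170), a lysosomal membrane protein of all macrophages, differed by -0.28 (95% interval -0.57 to 0.02, adjusted p = 0.223). Fabp1 (chr6:71199879-71205034), a cytoplasmic carrier of fatty acids best known from liver and gut, differed by -0.27 (95% interval -0.60 to 0.06, adjusted p = 0.294), and by -0.16 at its second probe set. Mrc1 (chr2:14229414-14332023), the mannose receptor CD206, had the smallest difference, -0.08 (95% interval -0.31 to 0.14, adjusted p = 0.701), with B6 controls between 7.79 and 8.16 and BALB controls between 7.73 and 8.17. The 95% intervals of these 4 reached no further down than -0.67, while the estimates for Chil3 and Krt79 lay below -2.

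**Figure D2:**
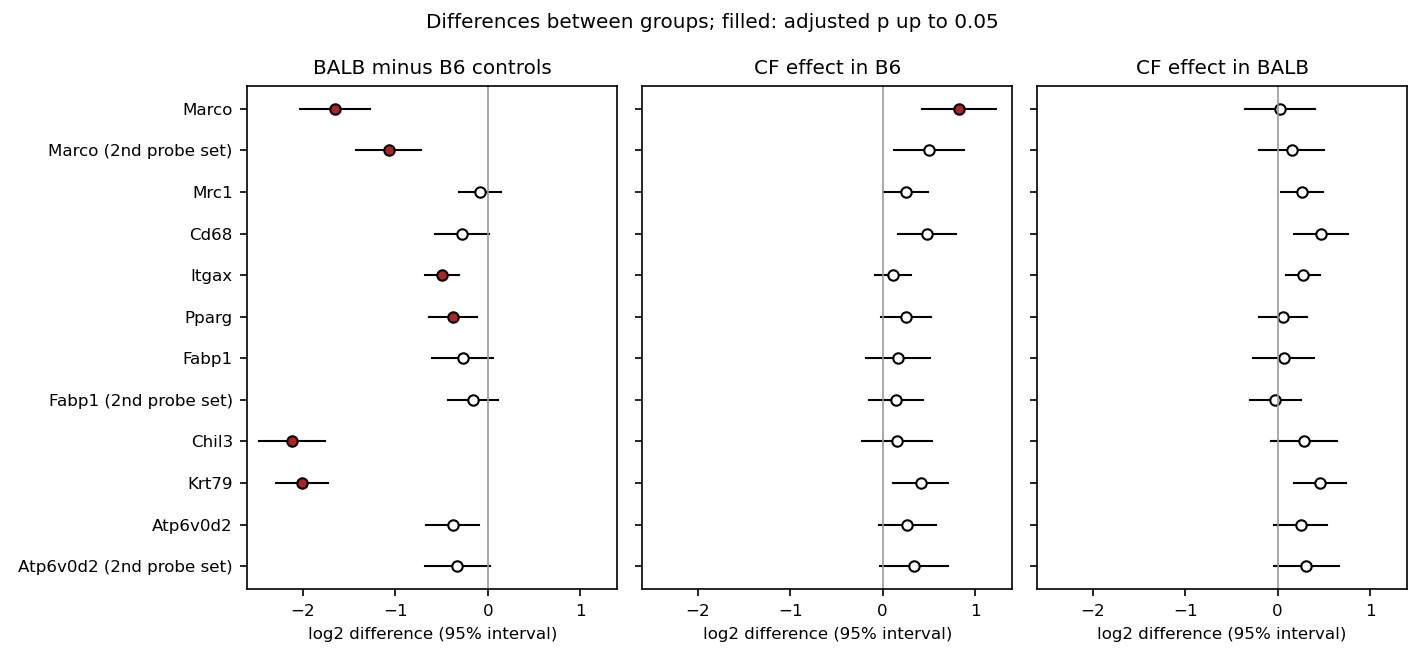
Log2 differences (horizontal axis, with 95% intervals) of the 12 probe sets in BALB minus B6 controls and in CF minus Control lungs of each strain; filled points passed an adjusted p of 0.05. The strain panel spans -2.12 to -0.08 at the brighter probe sets, and the CF panels hold 1 filled point, Marco in B6.

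The strain difference of Chil3, Krt79 and Marco was seen in each sex. In females 4 of the 9 genes were lower in BALB controls (Chil3 -2.12, Krt79 -1.99, Marco -1.95 and Itgax -0.61; limma adjusted p at most 0.00242), where 5.99% of genes were lower. In males 3 were (Chil3 -2.11, Krt79 -2.04 and Marco -1.36; adjusted p at most 0.00103), again beside 5.99% of genes. No member passed the test of the difference between the sexes (limma: 0 called and 0 with unadjusted p under 0.05; 0.0165% of all genes passed), and its widest interval, for Marco, ran from -1.35 to 0.16. Between female and male controls none of the 9 passed either (limma: 0 called, 0 with unadjusted p under 0.05, 3.42% of all genes called).

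CF lungs showed the strain difference in the same 5 genes. BALB CF minus B6 CF differences were -2.46 for Marco (5.52-fold, adjusted p = 3.58e-09), -1.99 for Chil3 (adjusted p = 4.48e-08), -1.96 for Krt79 (adjusted p = 1.31e-09), -0.57 for Pparg (adjusted p = 0.00354) and -0.33 for Itgax (adjusted p = 0.0160). Of all genes, 12.1% were lower in BALB CF lungs. The other 4 did not pass, with Mrc1 again nearest 0 at -0.06.

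The CF genotype was compared with its control within each strain. In B6 lungs the signals of all 9 genes were greater by sign in CF arrays, beside 52.7% of all genes. By sex this held for 9 in females and 6 in males. The 9 genes varied together within groups, so their signs are not separate observations. Of the 9 genes 1, Marco, passed the test, beside 5.43% of all genes in either direction and 3.92% upward. The median of the 9 was 0.25, beside 0.01 for all genes. Marco was 6.27, 6.55 and 7.44 in the B6 CF females and 6.55 and 6.94 in the B6 CF males, against 5.48 to 6.64 in B6 controls. The groups overlapped through 1 control female at 6.64 and 3 CF arrays below it. Marco rose by 0.83 (SE 0.19, 95% interval 0.43 to 1.23, adjusted p = 0.0148, n = 5 and 6), and by 1.11 in males alone (n = 2 and 3, limma adjusted p = 0.0232, 5.13% of genes higher). In B6 females alone the Marco difference was 0.55 and did not pass (n = 3 and 3, limma adjusted p = 0.486), and the females minus males difference was -0.57 (95% interval -1.37 to 0.24, adjusted p = 0.567). Its second probe set gave 0.50 and did not pass (adjusted p = 0.126), and the call at the first was lost without B6 CF male 2 (0.0690) or with scores of intestinal, squamous and muscle markers in the fit (0.0804).

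Krt79 was 7.11, 7.03 and 7.73 in B6 CF females and 7.17 and 6.96 in B6 CF males, and every one of these lay above the 6 B6 controls. Such separation upward was seen in 1.81% of all genes, but the difference of 0.41 did not pass (95% interval 0.11 to 0.71, adjusted p = 0.115). Cd68 differed by 0.48 (95% interval 0.17 to 0.80, adjusted p = 0.0717). The other 6 genes had differences from 0.11 (Itgax) to 0.27 (Atp6v0d2), none passing.

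In BALB lungs the 9 differences were also all positive by sign (median 0.27, all genes -0.01), beside 48.0% of all genes. By sex, 9 were positive in females and 7 in males. None passed with limma at an adjusted p of 0.05, while 4 had an unadjusted p under 0.05 and 5.53% of all genes were called. Cd68 differed by 0.47 (95% interval 0.17 to 0.76, adjusted p = 0.0622), from 6.87 to 7.58 in controls and from 7.34 to 8.14 in CF arrays. Krt79 differed by 0.46 (95% interval 0.18 to 0.74, adjusted p = 0.0548): BALB CF arrays ran from 4.72 to 5.53 and 5 of the 6 lay above the highest control, 4.87. Itgax differed by 0.28 (adjusted p = 0.0749) and Mrc1 by 0.27 (adjusted p = 0.183). Marco differed by 0.02 (95% interval -0.36 to 0.40), with CF arrays between 3.84 and 4.96. The BALB count depends on single arrays: it rose to 3 when B6 CF female 3, which enters only through the shared spread, was left out.

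The difference between the CF effects of the strains was tested directly, and no member passed (0 called, 1 with unadjusted p under 0.05, 2.23% of all genes called by limma). For Marco it was -0.81 (SE 0.26, 95% interval -1.36 to -0.26, adjusted p = 0.114). Without BALB CF female 3, the highest of the BALB CF arrays, it was -0.94 (adjusted p = 0.0468).

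The other genes of the alveolar macrophage were mixed. Of 20 listed, 18 were measured: 4 were lower, 1 was higher and 13 did not pass, with a median of -0.05 beside 0.02 for all genes. Siglecf, the lectin that defines the cell together with CD11c, was lower by 0.89 (adjusted p = 2.53e-05) and the tetraspanin gene Cd9 by 0.37 (adjusted p = 0.00237), and Fabp5 and Slc7a2 were the other 2. Car4, a membrane carbonic anhydrase that lung capillary endothelium also makes, was higher by 0.54 (adjusted p = 3.15e-07). In CF lungs 0 of the 18 changed in B6 mice, and in BALB mice Clec7a rose by 0.47 and Cebpb fell by 0.54.

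The pathway on which the cell depends held 1 strain difference among the genes listed. Of 17 genes of GM-CSF, TGF-beta and PPAR-gamma signalling, 1 was lower in BALB controls and 16 did not pass (median -0.07). The one was Csf2ra, the GM-CSF receptor alpha chain, at -0.69 (adjusted p = 2.96e-05); the shared beta chain gene Csf2rb gave -0.30 (adjusted p = 0.0541) and the ligand gene Csf2 -0.28 (adjusted p = 0.0578). In BALB CF lungs these 3 rose, Csf2ra by 0.54 (adjusted p = 0.00301), Csf2rb by 0.56 (adjusted p = 0.00257) and Csf2 by 0.37 (adjusted p = 0.0314), and with Spi1, the gene of PU.1, they made 4 of 17 that rose, while Klf4 and Cebpb fell. In B6 CF lungs Spi1 alone of the 17 rose, by 0.47. Among 14 measured genes of lipid handling and PPAR-gamma targets, 3 were higher and 2 lower in BALB controls, with Olr1, a receptor for oxidised lipoprotein, at -0.89 (adjusted p = 0.000239), the cholesterol exporter gene Abca1 at 0.40 (adjusted p = 0.000633) and the lipid droplet gene Plin2 at 0.35 (adjusted p = 0.00344). The other 2 were Lipa, higher, and Fabp5, lower. Of 12 scavenger and efferocytosis receptor genes, Stab1 was higher by 0.34 (adjusted p = 0.000855), and Olr1 and Mertk were lower. Mertk, which recognises dying cells, was lower by 0.51 (adjusted p = 0.000434).

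Genes of macrophages in general were measured as another list, which shares Mertk with the scavenger list and Spi1 with the GM-CSF list. Other lists share genes too, so counts of different lists are not independent. Of 12, 7 were lower in BALB controls, 0 higher and 5 did not pass, with a median of -0.34. The pore protein gene Mpeg1 was lower by 1.30 (adjusted p = 5.97e-11), the adaptor gene Tyrobp by 0.71 (adjusted p = 2.25e-05) and the lipopolysaccharide co-receptor gene Cd14 by 0.60 (adjusted p = 0.000217). In CF lungs 6 of the 12 rose in B6 and 5 in BALB mice, Mpeg1 by 0.34 and 0.43 and Tyrobp by 0.45 and 0.58 respectively. The mean level of the 12 genes ran from 8.48 to 8.60 in B6 controls and from 8.06 to 8.32 in BALB controls, without overlap. Markers of other white cells moved too. Of neutrophil markers, 5 of 7 were lower in BALB controls, 5 of 7 were higher in B6 CF and 6 of 7 in BALB CF lungs. The mean level of the 7 ran from 5.49 to 6.30 in B6 control females but from 7.41 to 7.71 in B6 control males, within the range of the B6 CF arrays, 7.33 to 8.18. Of 4 measured monocyte markers, Ccr2, F13a1 and Vcan were lower and Fn1 was higher in BALB controls. Of 9 markers of dendritic cells, which also express Itgax, Cd209a, Ccl22 and Batf3 were lower. Their part in the differences of the 9 genes was not tested.

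Because the general macrophage level moved with the strain and the genotype, the strain difference was also fitted with that level as a covariate, an alternative chosen after the data were seen. The level does not overlap between the control groups, so this fit leans on how each gene followed the level within groups. Krt79 then differed by -1.86 (adjusted p = 2.35e-05), Chil3 by -1.27 (adjusted p = 0.000256) and Marco by -1.23 (adjusted p = 0.0156). Itgax differed by -0.05 (adjusted p = 0.861) and Pparg by 0.06 (adjusted p = 0.913). Cd68 was then higher in BALB controls by 0.48 (adjusted p = 0.0462). The Marco CF effect in B6 was 0.49 in this fit and did not pass (limma adjusted p = 0.512). How far the general macrophage level accounts for any of these differences was not tested.

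**Figure D3:**
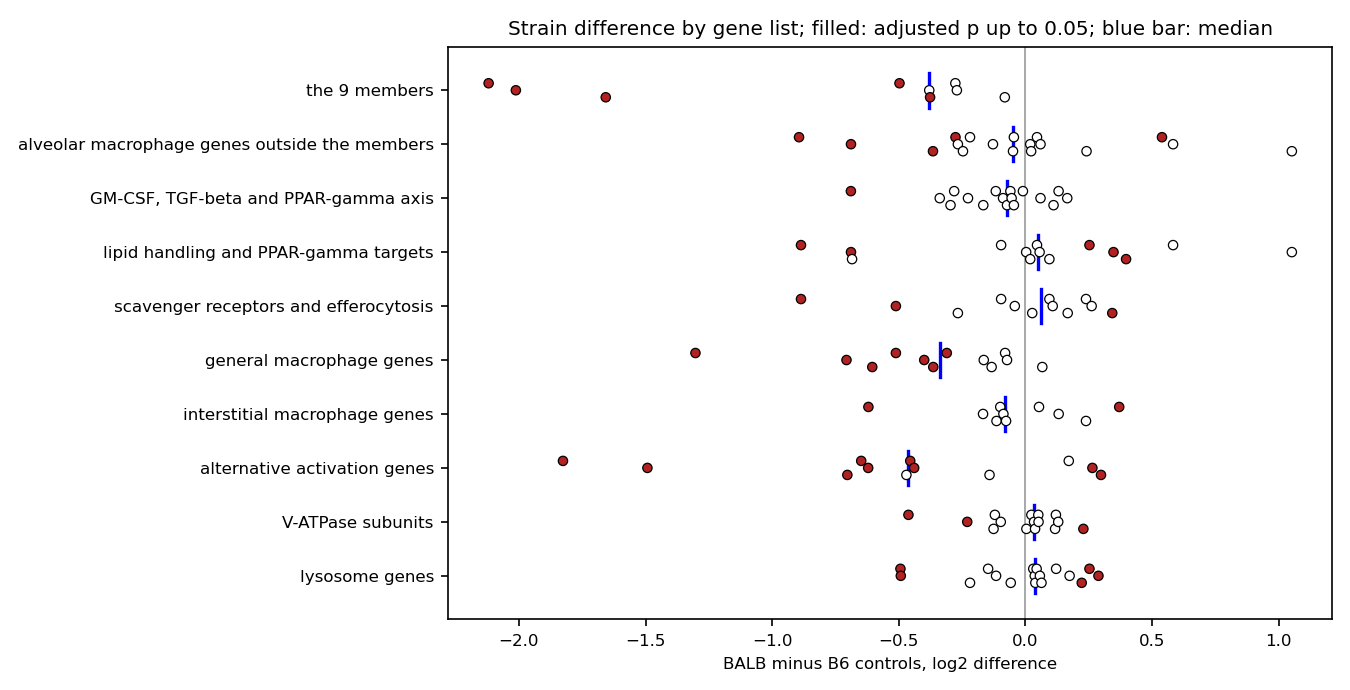
Difference between BALB and B6 controls (horizontal axis, log2) of each measured gene of the 9 and of 9 other lists; each point is a gene, filled points passed an adjusted p of 0.05, blue bars are medians. The medians run from -0.46 (alternative activation) to 0.06 (scavenger receptors), and Chil3 and Krt79 lie furthest left, followed by Retnla of the alternative activation list and by Marco.

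Chil3 and Mrc1 are also read as genes of alternative activation, the state induced by interleukin-4 and interleukin-13. Of 12 other such genes, 7 were lower, 2 higher and 3 not called in BALB controls (median -0.46). The 2 were Ccl24 and Il4ra. Retnla, which encodes the secreted protein RELM-alpha, was lower by 1.83 (adjusted p = 2.46e-06) and the chemokine genes Ccl17 by 1.49 (adjusted p = 2.41e-07) and Ccl22 by 0.65 (adjusted p = 0.000177). In CF lungs 0 of 12 changed in B6 mice and 1, Chil4, rose in BALB mice. Of 10 interstitial macrophage genes, 1 was higher and 1 lower in BALB controls, and 6 rose in B6 CF lungs, with the complement gene C1qa up by 0.79 (adjusted p = 0.000253) and the chemokine receptor gene Cx3cr1 up by 0.85 (adjusted p = 0.00325). In BALB CF lungs Cx3cr1 and Trem2 rose and Lyve1 fell. Lyve1 is also on a list of 6 lymphatic endothelium markers, of which 0 were higher, 3 lower and 3 not called in BALB CF lungs. Which cells the Lyve1 difference came from was not tested.

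The 3 probe sets below bear on the Ym proteins, and they are given together. A probe set annotated to both Chil3 and Chil4 ran from 10.21 to 11.14 in B6 controls and from 7.65 to 8.96 in BALB controls, a difference of -2.38 (adjusted p = 1.11e-07). Over the 23 arrays it followed the Chil3 probe set (Pearson r = 0.99) far more than the Chil4 one (r = 0.36), as a description of arrays that share strain and tissue. Chil4 alone was dim, from 3.54 to 4.45 in B6 controls and from 3.18 to 3.59 in BALB controls, and its strain difference of -0.47 did not pass (adjusted p = 0.172). In BALB CF lungs it was 3.38, 3.24 and 4.71 in females and 3.74, 5.18 and 4.88 in males, so that 4 of 6 lay above every BALB control. Chil4 rose by 0.76 there (SE 0.22, adjusted p = 0.0476), and by 0.11 without passing in B6 (adjusted p = 0.874). How far the Chil3 probes read Chil4 transcripts was not tested. Of the 6 other chitinase family genes 1 was lower in BALB controls, Chil1, by 0.51 (adjusted p = 0.00274).

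**Figure D4:**
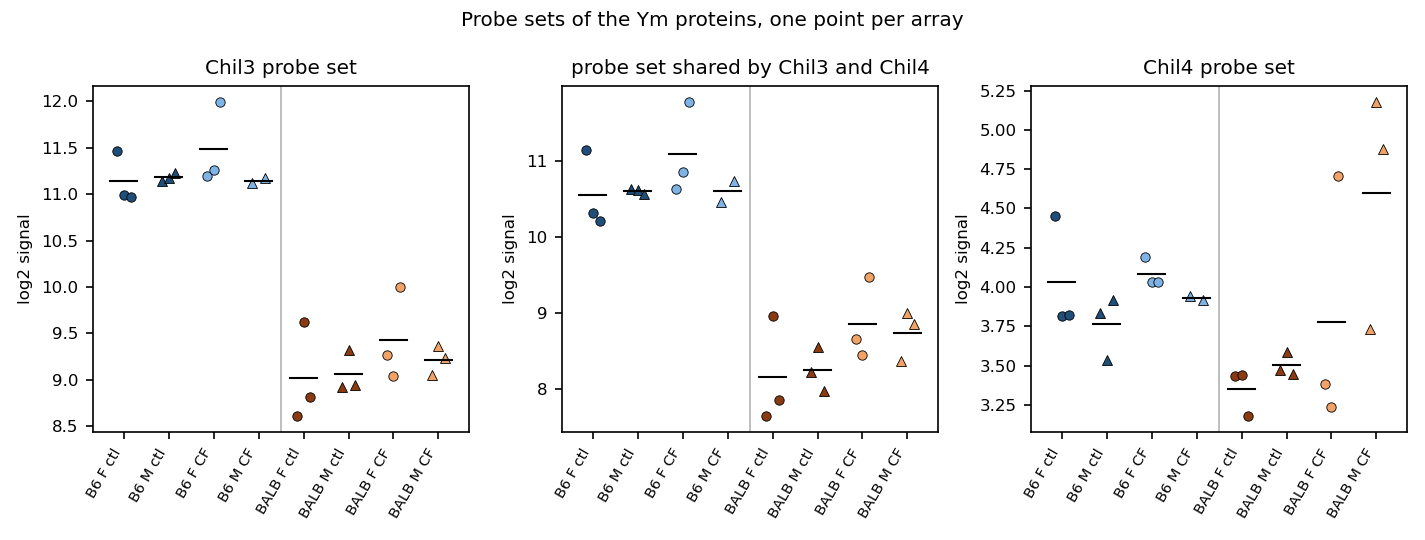
Log2 signal (vertical axis) of the Chil3 probe set, the probe set shared by Chil3 and Chil4, and the Chil4 probe set in each of the 23 arrays, by strain, sex (circles F, triangles M) and genotype; lines are group means and each panel has its own scale. The first 2 panels separate the strains, whereas Chil4 reaches 5.18 in a BALB CF male and reaches at most 4.45 in B6 arrays.

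Fabp1 and Atp6v0d2 were set beside the members of their families. Of the 6 other fatty acid binding protein genes 2 were higher and 1 lower in BALB controls. The gut genes Fabp6 and Fabp2 were higher by 2.48 (adjusted p = 0.000448) and 2.53 (adjusted p = 0.000995), Fabp5 was lower by 0.69 (adjusted p = 0.0150), and Fabp4, of macrophages and fat, gave 1.05 and did not pass (adjusted p = 0.184). Fabp4 ran from 7.34 to 10.83 in BALB controls, a wider spread than in B6 controls at 7.63 to 8.41. The ubiquitous d subunit gene Atp6v0d1 gave 0.12 (adjusted p = 0.268), and of 15 measured V-ATPase subunit genes Atp6v0b was higher and Atp6v1d and Atp6v1h were lower, with Atp6v1d at -0.46 (adjusted p = 7.46e-06). Of 17 lysosome genes Mcoln1, Tfeb and Lipa were higher and Npc1 and Gpnmb lower.

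Several arrays carried transcripts of other tissues. Of 11 intestinal epithelium markers 7 were higher in BALB than in B6 controls; their mean level ran from 4.73 to 6.50 in BALB controls, from 4.21 to 5.97 in B6 controls, from 4.22 to 4.43 in B6 CF and from 4.11 to 5.31 in BALB CF arrays. Fabp1, a gene of the gut as well, went the other way by sign in the strain comparison, while Fabp2 had a median of 6.21 in BALB controls and 2.76 in B6 controls. The mean of 10 squamous epithelium markers reached 7.90 in a B6 control and 7.92 in a BALB CF array, with a median of 4.39 and 5.29 in those groups, and Krt4, Krt13 and Krtdap rose in BALB CF lungs. That level was 6.34, 6.67 and 7.92 in BALB CF females and between 4.05 and 4.23 in BALB CF males, while the Krt79 difference was 0.47 in BALB females and 0.45 in BALB males, neither passing (adjusted p = 0.240 and 0.292). Krt4 reached 12.60 in B6 controls (median 4.83), where Krt79 stayed between 6.42 and 6.95. The part of squamous tissue in the Krt79 values was not tested. With intestinal, squamous and muscle marker scores as covariates, Krt79 differed between the strains by -2.12 (adjusted p = 0.000126), Chil3 by -2.10 (adjusted p = 0.00123) and Marco by -2.01 (adjusted p = 0.00388), while Itgax at -0.58 (adjusted p = 0.147) and Pparg at -0.22 (adjusted p = 0.796) did not pass. Adipocytes are the other main cells that express Pparg. Of 6 adipocyte markers, 0 passed between the control groups in the fit without these scores, with a median of 0.46 beside 0.02 for all genes. Their mean level ran from 4.51 to 7.25 in BALB controls and from 4.83 to 5.35 in B6 controls. The part of fat in the Pparg values was not tested.

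Within groups the 9 genes varied together to unlike degrees, and Krt79 least. After each group mean was subtracted, the median Pearson r over the 36 pairs of genes was 0.58 across the 23 arrays. It ran from -0.03 to 0.86 (Chil3 with Cd68), and 22 pairs exceeded 0.5. The share of all gene pairs that exceed 0.5 was not computed. Pairs with Krt79 ran from -0.03 (Pparg) to 0.47 (Marco). Of 11634 genes, 51.4% were at least as like Krt79 as Pparg was, and 0.0344% at least as like Chil3 as Cd68 was. The array of B6 CF female 3 was the highest of all 23 for 8 of the 9 genes, Pparg being the exception. Its general macrophage level was 8.96, beside 8.60 and 8.62 in the other B6 CF females and 9.04 and 8.89 in the B6 CF males. Without that array the median r was 0.51. BALB control female 2 was the highest BALB control for 6 of the 9, and without it 7 genes were lower in BALB controls, Atp6v0d2 and Fabp1 (-0.42, adjusted p = 0.0395) among them. These correlations share arrays and tissue makeup and are given as a description.

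**Figure D5:**
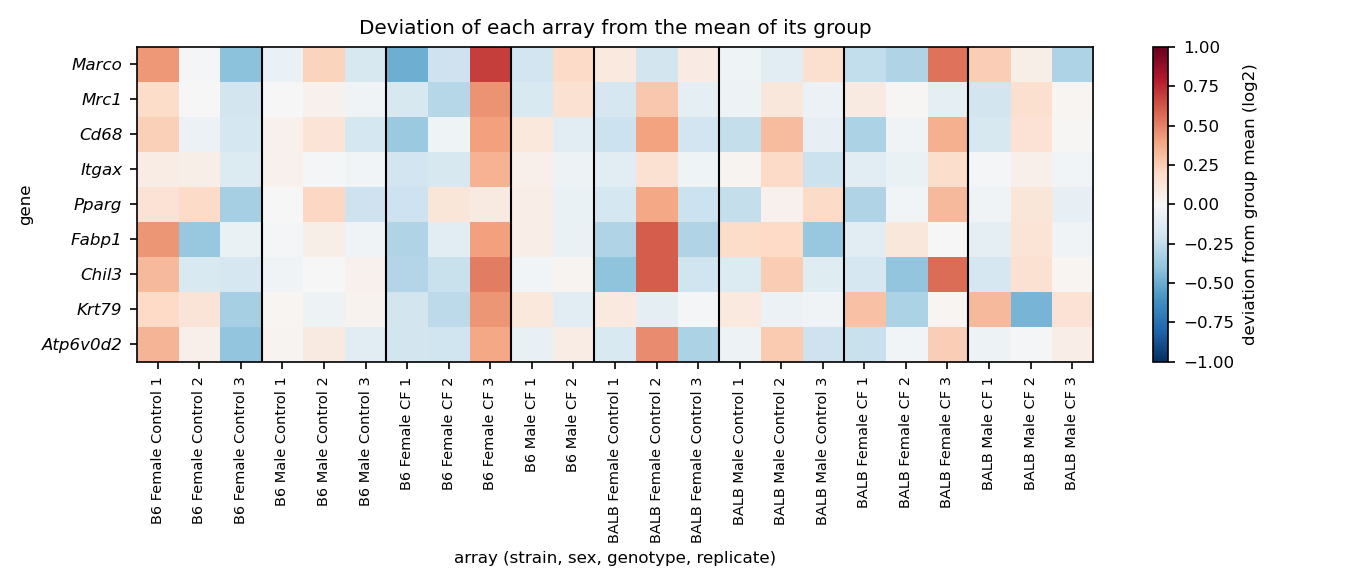
Deviation of each array (columns) from the mean of its strain, sex and genotype group for each gene (rows), on a log2 colour scale from -1 (blue) to 1 (red). B6 Female CF 3 is red for every gene but is pale for Pparg, and most rows of BALB Female Control 2 are red.

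Among the same 11634 brighter genes, those whose deviations were most like those of each of the 9 were found over the same 23 arrays. Chil3 was followed by the cytokine gene Il18 (r = 0.93) and the chemokine gene Ccl6 (r = 0.89), Cd68 by the protease gene Ctsz (0.94) and the lectin gene Clec4a2 (0.91), and Itgax by the coagulation factor genes F7 and F10 (both 0.91). Mrc1 was followed by Naaa (0.89) and Ctss (0.88), Atp6v0d2 by Plet1 (0.89) and Pgm3 (0.88), Pparg by Rnf217 (0.89) and Mccc1 (0.85), and Fabp1 by Ndufc2 (0.95) and Pcna (0.91). Marco and Krt79 had the least alike partners, Sec24a (0.76) and Gpnmb (0.74) for Marco, and Txnrd1 (0.79) and Cfap161 (0.77) for Krt79. All partners were picked as the highest of 11634 genes, a choice that raises r by itself, and their r was not tested.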

How the data were processed

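Mouse right lung RNA, labelled with biotin, was hybridised to 23 arrays of 1 colour. The values, deposited by the authors, are log2 signals, a scale read from the values and not stated in the labels; how they were made is not given in the sources used. Of 45101 probe sets, 64 array controls were left out, and 45037 were tested as deposited: 34945 have 1 gene symbol, 932 several and 9160 none. Groups came from the sample titles. One limma 3.58.1 model (R 4.3.3) was fitted with 8 group means on all 23 arrays (15 residual and 5.81 prior degrees of freedom), with contrasts that weight the sexes equally and Benjamini-Hochberg adjustment over all probe sets within a comparison. Genes are counted by the probe set with the highest mean over all arrays. The number of arrays limits the precision. The script was tested on simulated data. The 9 genes and all lists were chosen with earlier results of these data known. All 9 and every probe set are named, the 4 paralogs always, and from each list up to 3 genes of lowest p in BALB minus B6 controls; genes named only to complete a count of 5 or fewer were chosen after their values were seen. Alternatives were other normalizations, a filter on dim probe sets, a replicate block, array weights, another variance prior, averaged probe sets, control arrays alone, tissue scores as covariates and leaving out each array.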

Additional observations from a re-analysis of the deposited data

Results flagged for a closer look

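In 36 sets of 5 or 6 arrays (each of the 9 genes in each strain and genotype, sexes pooled), 5 had an end value far from the rest by Dixon's ratio. About 1 in 20 unrelated sets would pass this cutoff by chance. These sets share arrays and the genes vary together, so the 5 cannot be set against that rate. In B6 CF lungs, female 3 stood above the others for Krt79 (7.73, next 7.17), Chil3 (11.99, next 11.26) and Itgax (7.96, next 7.46). In BALB CF lungs, female 3 stood above the others for Chil3 (9.99, next 9.36) and Itgax (7.43, next 7.19). BALB CF female 3 was also the highest BALB CF array for the mean level of skeletal muscle (8.35), squamous epithelium (7.92), neutrophil (7.88) and adipocyte (6.76) markers; their part in these values was not tested. Without B6 CF female 3 the CF difference in B6 was 0.30 for Krt79, 0.03 for Chil3 and 0.02 for Itgax, and none of these passed with or without it.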

How the results depend on the processing

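Chil3, Krt79 and Marco were lower in BALB controls under every alternative run, with values from -2.27 to -1.27, -2.12 to -1.86 and -2.01 to -1.23. The strain comparison called 5 of the 9 genes, 4 to 7 when single arrays were left out, and 3 with intestinal, squamous and muscle scores as covariates, where Mrc1 was 0.094. The CF comparison in B6 called 1 gene, 0 to 2 without single arrays, 2 with array weights, and 0 with the tissue scores or the general macrophage score. The CF comparison in BALB called 0, 0 to 3 without single arrays, 2 with quantile normalization, 2 with the dim filter, 2 with array weights, and 1 with the replicate block (Krt79, adjusted p = 0.0348). The difference between the CF effects called 0, and 0 to 1 without single arrays. Same-numbered arrays of different groups had a median r of 0.02 over 77 pairs, with 17 above 0.1 and the highest at 0.46. Arrays of other numbers had a median r of -0.01 over 154 pairs, with 37 above 0.1 and the highest at 0.28. A median near 0 cannot show whether some of the numbers pair samples.

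Some values turned sign. For the CF difference in BALB these were Marco with array medians subtracted (-0.0011), Pparg (-0.16) and Fabp1 (-0.090) with the tissue scores, and, over single arrays left out, Marco (-0.11 to 0.10), Pparg (-0.021 to 0.16) and Fabp1 (-0.029 to 0.22). With the general macrophage score as a covariate, chosen after the data were seen, the strain difference became 0.064 for Pparg, 0.34 for Fabp1, 0.38 for Mrc1, 0.48 for Cd68 (called, adjusted p = 0.0462) and 0.27 for Atp6v0d2. The CF difference in B6 became -0.52 for Chil3, -0.10 for Pparg, -0.32 for Fabp1, -0.12 for Mrc1, -0.24 for Itgax, -0.12 for Cd68 and -0.25 for Atp6v0d2. The CF difference in BALB became -0.32 for Marco, -0.40 for Chil3, -0.29 for Pparg, -0.43 for Fabp1, -0.11 for Mrc1, -0.080 for Itgax, -0.14 for Cd68 and -0.27 for Atp6v0d2. The cause was not tested. The distance to background is unknown, which limits the folds of Marco and Krt79, dim in BALB lungs.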
